A study of Rattus norvegicus with 36 samples.

Results

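The genes described here supply hepatic cytochrome P450 enzymes with electrons and heme, break heme down, or hydrolyse the epoxides that P450 reactions form. They were Por, Cyb5a, Cyb5r3, Alas1, Alad, Fech, Hmox1, Blvrb, Ephx1 and Ephx2, and their values were taken from the probe sets annotated to 1 of these symbols alone. The 10 genes had 11 probe sets, of 14217 genes and 31042 probe sets tested. Por had 2 probe sets and the others 1 each.

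RNA was measured in 36 livers of male Sprague Dawley rats that were 7 weeks old when dosing began. The 6 groups of 6 rats received vehicle (corn oil alone) or, in 5 of them, hexachlorocyclopentadienyl-dibromocyclooctane (HCDBCO), a halogenated flame retardant, at doses of 0.05 mg/kg, 0.54 mg/kg, 5.41 mg/kg, 54.1 mg/kg and 541 mg/kg. All groups, vehicle included, were gavaged with 5 ml corn oil per kg body weight on 5 days, and liver was taken 1 day after the last dose. The values are the authors' RMA expression values from one-colour Affymetrix 3′ arrays, taken as log2. A level is compared only between samples of the same probe set, never between genes. The design asks which liver transcripts differ from vehicle after each dose.

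Cytochrome P450 enzymes of the endoplasmic reticulum hold a heme group and need electrons from NADPH. P450 oxidoreductase, the product of Por, passes these electrons to them, and cytochrome b5, kept reduced by cytochrome b5 reductase, can give an electron to some P450s. Heme is built from glycine and succinyl-CoA in a chain that starts with the ALAS1 enzyme in liver and ends when ferrochelatase inserts iron. Heme oxygenase opens the ring to biliverdin, which is then reduced to bilirubin. Which biliverdin reductase does so in these livers was not tested. Epoxides left by P450 reactions are opened to diols by the microsomal epoxide hydrolase EPHX1 and the soluble epoxide hydrolase EPHX2.

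At 541 mg/kg, Ephx1 and Blvrb rose relative to vehicle, by 1.44-fold and 1.29-fold, and none of the 10 genes fell (limma, false discovery rate, FDR, of 5% over all probe sets). These 2 of 10 genes stand beside 36 of all 31042 probe sets called higher in that comparison, or 0.116%. Here and below, each gene is counted by its probe set of highest mean. The shares cover all probe sets, including dim ones and those without a symbol, so the sets are unlike. The 10 genes were chosen with earlier results of these data known. Over the order of the doses, a linear trend through the 6 group means rose for 4 of the 10 genes, Blvrb, Ephx1, Por and Cyb5a, where 0.341% of all probe sets rose. The trend calls of Por and Cyb5a were lost with each array centred on its median. The dimmer Por probe set did not pass in the trend. With the top dose left out of the slope, none of the 4 genes passed. Every sample at 541 mg/kg lay above every vehicle sample for 3 of the 10 genes, Ephx1, Blvrb and Cyb5a, against 0.393% of all probe sets. The enzymes of heme synthesis, heme oxygenase, cytochrome b5 reductase and the soluble epoxide hydrolase did not pass any of the tests. Over the 10 genes the median log2 difference between 541 mg/kg and vehicle was 0.13, and over all probe sets it was 0.01. The difference was positive for 7 of the 10 genes and for 53.3% of all probe sets.

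None of the 10 genes at 54.1 mg/kg passed limma's test against vehicle, and 0.0419% of all probe sets were called higher. Without adjustment, 4 of the 10 had a p under 0.05, namely Blvrb, Ephx1, Cyb5a and Por, as did 9.2% of all probe sets. The same 4 had such a p at 541 mg/kg, beside 9.07% of all probe sets. All 6 samples at 54.1 mg/kg lay above all 6 vehicle samples for the same 3 genes as at 541 mg/kg, Ephx1, Blvrb and Cyb5a, beside 0.226% of all probe sets. These comparisons share their vehicle samples. At 5.41, 0.54 and 0.05 mg/kg, limma called 0% of all probe sets, and so none of the 10 genes. At those doses 0, 1 and 0 of the 10 had an unadjusted p under 0.05, the 1 being Ephx2 at 0.54 mg/kg. The shares of all probe sets were 4.83%, 4.18% and 3.02%. Between 541 and 54.1 mg/kg none of the 10 passed, where 0.00322% of all probe sets were higher. In that comparison 2 of the 10, Alas1 and Blvrb, had an unadjusted p under 0.05, as did 4.76% of all probe sets. An F-test over all 6 dose groups called 2 of the 10, Blvrb and Ephx1, and 0.0999% of all probe sets. The labels give no animal numbers, so all these p-values rest on the spread from liver to liver within this set.

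**Figure D1:**
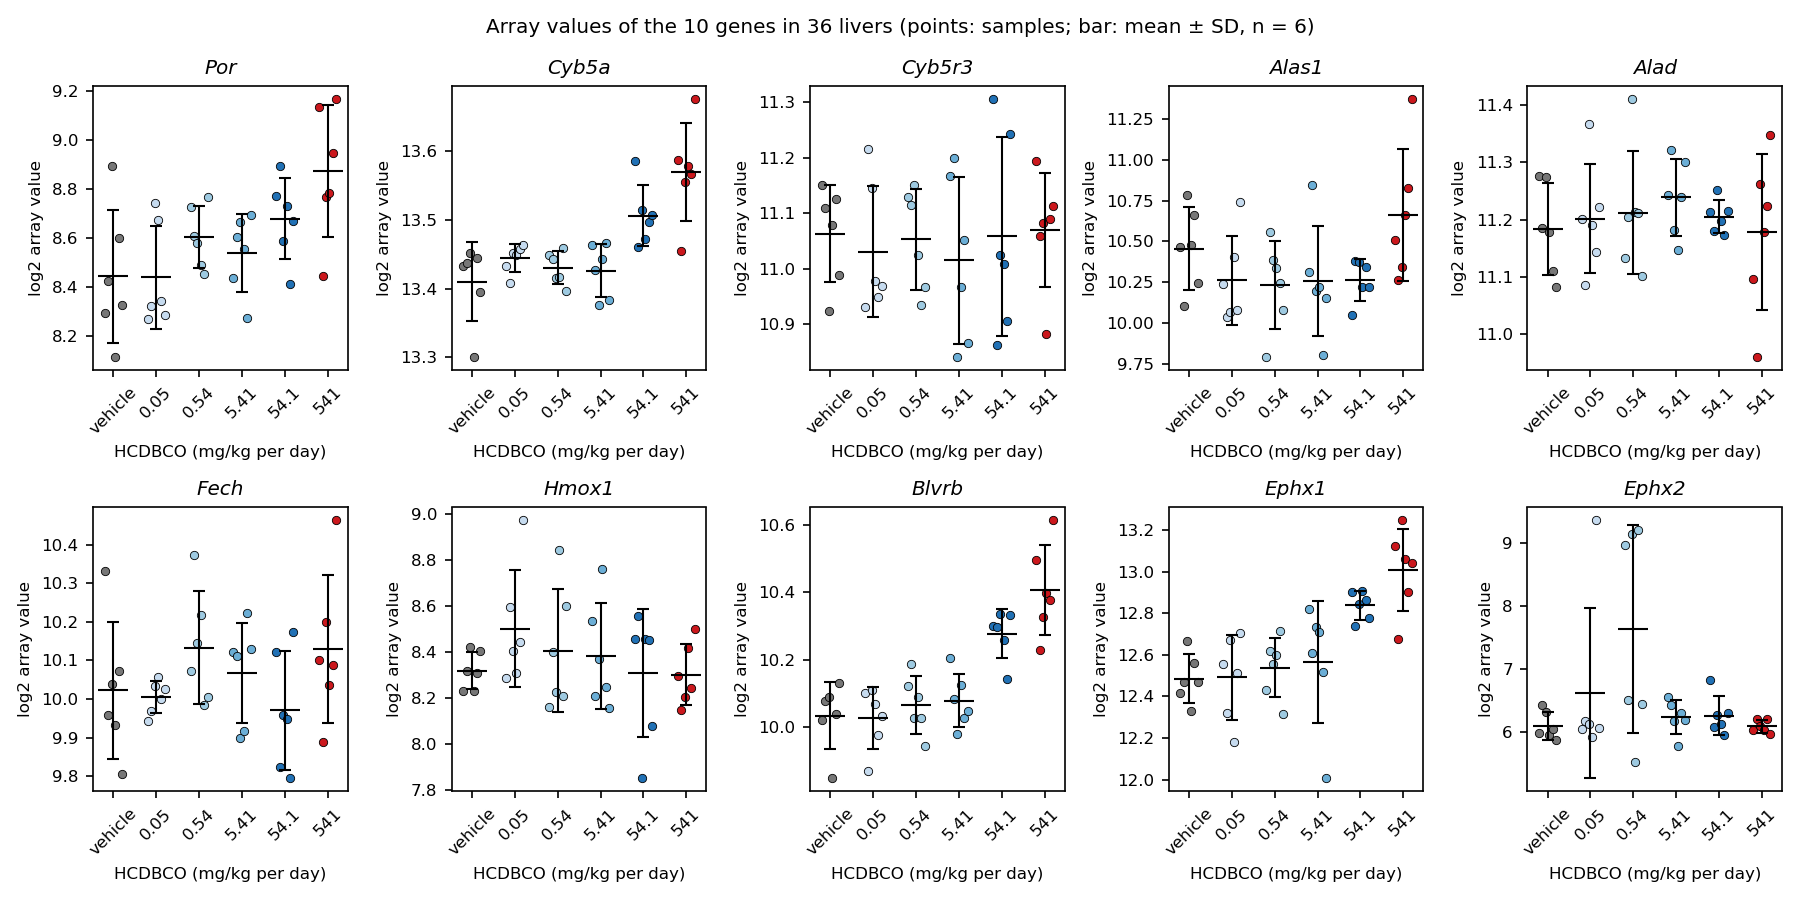
Each panel plots 1 gene's log2 array value (vertical axis, its own scale) in the 36 livers by HCDBCO dose (horizontal axis, mg/kg per day, vehicle at the left); points are samples and bars the mean ± SD of 6. Ephx1, Blvrb and Cyb5a have all 6 points at 541 mg/kg and at 54.1 mg/kg above the 6 vehicle points, and Ephx2 has 4 points near 9 at the 2 lowest doses.

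Sequence upstream of a start site was taken from RefSeq (build GRCr8) for Ephx1, Blvrb, Por and Cyb5a, the genes whose trend over the doses rose. Whether they share a control was not tested. Of the 10 genes, 8 had an entry, and Hmox1 and Ephx2 are named only. Each window runs from 250 bases before to 50 bases from the start site on, is written 5′ to 3′ on the gene's strand, and carries capitals where a searched motif occurs on either strand. The motifs were the antioxidant response element core TGACNNNGC, the xenobiotic response element core GCGTG, and the nuclear receptor half-sites AGGTCA and AGTTCA. The GC box GGGCGG was searched too and is left in lower case. A position is that of a match's first base on the gene's strand, with the start site as base 1 and the base before it as -1. Ephx1 is shown with both of its start sites, named by their order along the gene.
Ephx1, start site farther upstream, chr13:95275803-95276102, minus strand: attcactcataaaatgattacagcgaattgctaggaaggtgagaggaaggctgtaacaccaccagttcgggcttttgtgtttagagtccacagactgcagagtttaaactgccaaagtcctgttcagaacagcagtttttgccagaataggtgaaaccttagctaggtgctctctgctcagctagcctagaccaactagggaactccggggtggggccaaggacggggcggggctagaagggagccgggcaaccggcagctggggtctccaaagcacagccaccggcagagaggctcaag
Ephx1, start site farther downstream, chr13:95263068-95263367, minus strand: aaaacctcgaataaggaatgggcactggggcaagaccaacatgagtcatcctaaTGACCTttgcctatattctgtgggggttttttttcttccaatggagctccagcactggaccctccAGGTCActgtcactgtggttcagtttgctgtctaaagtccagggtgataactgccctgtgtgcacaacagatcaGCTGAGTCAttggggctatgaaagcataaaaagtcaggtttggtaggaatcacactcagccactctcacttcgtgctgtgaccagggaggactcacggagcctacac
Blvrb, chr1:91866008-91866307, plus strand: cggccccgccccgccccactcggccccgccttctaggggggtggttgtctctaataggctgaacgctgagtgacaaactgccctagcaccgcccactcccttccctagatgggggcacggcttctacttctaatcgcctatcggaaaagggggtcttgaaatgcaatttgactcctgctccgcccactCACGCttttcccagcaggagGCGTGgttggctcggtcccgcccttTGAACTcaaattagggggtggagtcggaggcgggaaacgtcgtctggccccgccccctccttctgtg
Por, chr12:26635760-26636059, minus strand: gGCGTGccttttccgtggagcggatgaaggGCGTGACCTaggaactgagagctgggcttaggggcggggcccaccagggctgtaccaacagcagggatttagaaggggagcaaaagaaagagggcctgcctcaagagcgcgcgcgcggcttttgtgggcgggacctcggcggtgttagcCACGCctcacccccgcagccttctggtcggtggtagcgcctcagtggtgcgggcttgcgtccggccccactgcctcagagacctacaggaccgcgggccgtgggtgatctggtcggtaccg
Cyb5a, chr18:80487759-80488058, plus strand: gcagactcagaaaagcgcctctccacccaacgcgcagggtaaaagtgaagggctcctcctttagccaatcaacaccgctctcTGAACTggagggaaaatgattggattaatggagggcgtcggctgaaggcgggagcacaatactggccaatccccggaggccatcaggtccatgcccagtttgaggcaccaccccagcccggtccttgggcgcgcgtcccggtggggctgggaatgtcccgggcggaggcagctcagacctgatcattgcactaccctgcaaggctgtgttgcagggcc

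The downstream Ephx1 start site is the only one of the 5 windows shown with TGACNNNGC, which lies at position -57 on the opposite strand. It also holds AGGTCA at -131 and, on the opposite strand, at -196. The upstream Ephx1 window holds none of the capitalised motifs, and a GC box at -25. Blvrb has GCGTG at -42 and, on the opposite strand, at -62, with AGTTCA at -17 on the opposite strand and 6 GC boxes. In the Por window GCGTG occurs at -249 and -220 and, on the opposite strand, at -71. Its AGGTCA at -217 on the opposite strand overlaps the GCGTG at -220, and the window holds 2 GC boxes. Cyb5a has AGTTCA at -168 on the opposite strand and a GC box at -9. These are letter matches and common ones. Among 33469 promoter windows of the same length, 12.1% hold TGACNNNGC, 29.7% GCGTG, 16.2% AGGTCA, 14.5% AGTTCA and 33.1% GGGCGG. Of the windows of genes that passed no test, those of Cyb5r3, Alas1, Alad and Fech also hold GCGTG.

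Ephx1 encodes the microsomal epoxide hydrolase, which opens reactive epoxides of drugs and polycyclic hydrocarbons. Its probe set 1387669_a_at read 12.67 in the lowest, 13.05 in the median and 13.25 in the highest sample at 541 mg/kg, against 12.33, 12.47 and 12.67 in vehicle. The groups did not overlap, although the lowest sample at 541 mg/kg, replicate 2, and the highest vehicle sample, replicate 3, are equal at this rounding. The lowest, median and highest samples at 54.1 mg/kg were 12.74, 12.85 and 12.91, also all above vehicle.

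Group medians of Ephx1 in the order of the doses were 12.47 in vehicle, 12.53 at 0.05, 12.58 at 0.54, 12.66 at 5.41, 12.85 at 54.1 and 13.05 at 541 mg/kg. The 4 groups from vehicle to 5.41 mg/kg overlapped one another, and the 2 highest doses overlapped each other. The 541 mg/kg group, through its lowest sample, also overlapped 0.05, 0.54 and 5.41 mg/kg, and 54.1 mg/kg overlapped 5.41 mg/kg. The log2 difference between 541 mg/kg and vehicle was 0.52 ± 0.10 (SE, n = 6 each; limma adjusted p = 0.0152). For 54.1 mg/kg it was 0.35 ± 0.10 (limma adjusted p = 0.216), or 1.28-fold. The trend rose by 0.11 per dose step (limma adjusted p = 0.00125), and the F-test gave an adjusted p of 0.0225 (limma).

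The call of Ephx1 at 541 mg/kg passed in 8 of 12 fits that each left out 1 sample of either group. It was lost without replicate 1, 3 or 4 of 541 mg/kg (limma adjusted p = 0.0591, 0.0525 and 0.0553) or without vehicle replicate 4 (limma adjusted p = 0.0574), with log2 differences between 0.48 and 0.59 over the 12 fits. The trend passed in all 36 fits without 1 sample. With only the samples of 54.1 mg/kg and vehicle in the fit, the rise at 54.1 mg/kg passed as well (limma adjusted p = 0.0425).

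The soluble epoxide hydrolase Ephx2, which acts on epoxides of fatty acids, had a different spread. Its probe set 1369663_at read 5.97, 6.06 and 6.21 in the lowest, median and highest sample at 541 mg/kg, against 5.86, 6.01 and 6.43 in vehicle. The 541 mg/kg samples all lay within the vehicle range. Of the 36 livers, 4 stood far above the other 32, which lay between 5.52 and 6.83. The high values were 9.36 in 0.05 mg/kg replicate 5 and 8.97, 9.14 and 9.20 in 0.54 mg/kg replicates 1, 3 and 5. The other 3 samples at 0.54 mg/kg read 5.52, 6.44 and 6.51, so that group was split between low and high values.

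The standard deviation of Ephx2 within groups, 0.89, was at the 99.9th percentile of all probe sets. The mean difference at 0.54 mg/kg was 1.53 ± 0.47 with an unadjusted p of 0.00264 and an adjusted p of 0.999 (limma, n = 6 each). At 541 mg/kg it was -0.01 ± 0.47, with a 95% confidence interval of -0.97 to 0.95. That interval rests on the spread pooled over all groups, the high livers included, and is wide enough to hold the difference seen in Ephx1. Within the groups compared, the standard deviation of Ephx2 was only 0.10 at 541 mg/kg and 0.22 in vehicle. Of 6 other listed genes of epoxide handling 5 were measured, and none passed at 541 mg/kg or had an unadjusted p under 0.05 (limma), with a median difference of -0.04. Those with the smallest p were Mest, a gene of the alpha/beta hydrolase family (0.21, limma adjusted p = 0.706), and Ptges, a prostaglandin E synthase (0.09, limma adjusted p = 0.836). Another, dimmer Ptges probe set differed by -0.05 (limma adjusted p = 0.867).

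Blvrb encodes biliverdin reductase B, an NADPH-dependent flavin and biliverdin reductase. Probe set 1392539_at read 10.23, 10.39 and 10.61 in the lowest, median and highest sample at 541 mg/kg, against 9.85, 10.06 and 10.13 in vehicle. The 54.1 mg/kg samples had 10.14, 10.30 and 10.34. Neither dose overlapped with vehicle, and the sample nearest to vehicle was replicate 5 of 54.1 mg/kg.

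In the order of the doses the Blvrb medians were 10.06 in vehicle, 10.05 at 0.05, 10.06 at 0.54, 10.07 at 5.41, 10.30 at 54.1 and 10.39 at 541 mg/kg. The 4 lowest groups overlapped one another, and the 2 highest overlapped each other. The 54.1 mg/kg group also overlapped 0.54 and 5.41 mg/kg, while 541 mg/kg lay above all 4 lowest groups. The log2 difference at 541 mg/kg was 0.37 ± 0.06 (limma adjusted p = 0.00102, n = 6 each), and at 54.1 mg/kg it was 0.24 ± 0.06 (limma adjusted p = 0.105). The trend rose by 0.07 per dose step (limma adjusted p = 4.05e-05), and the F-test gave an adjusted p of 0.000604 (limma).

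Blvrb passed at 541 mg/kg in all 12 fits that left out 1 sample, with differences between 0.33 and 0.41. With the samples of 541 mg/kg and vehicle alone in the fit, it did not pass (limma adjusted p = 0.0663), and with array quality weights it also passed at 54.1 mg/kg (limma adjusted p = 0.0327). Its within-group standard deviation, 0.10, was at the 8.59th percentile of all probe sets, and that of Ephx1, 0.19, at the 82.4th.

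Upstream of biliverdin, Hmox1, the inducible heme oxygenase, read 8.15, 8.27 and 8.50 in the lowest, median and highest sample at 541 mg/kg, against 8.23, 8.31 and 8.42 in vehicle. The ranges overlapped. The log2 difference was -0.02 ± 0.12, with a 95% confidence interval of -0.26 to 0.23 (limma adjusted p = 0.98, n = 6 each). The highest Hmox1 value of all, 8.97, was in 0.05 mg/kg replicate 6, and the lowest, 7.85, in 54.1 mg/kg replicate 3. In the same livers Blvrb rose; the difference between the changes of Hmox1 and Blvrb was not tested.

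**Figure D2:**
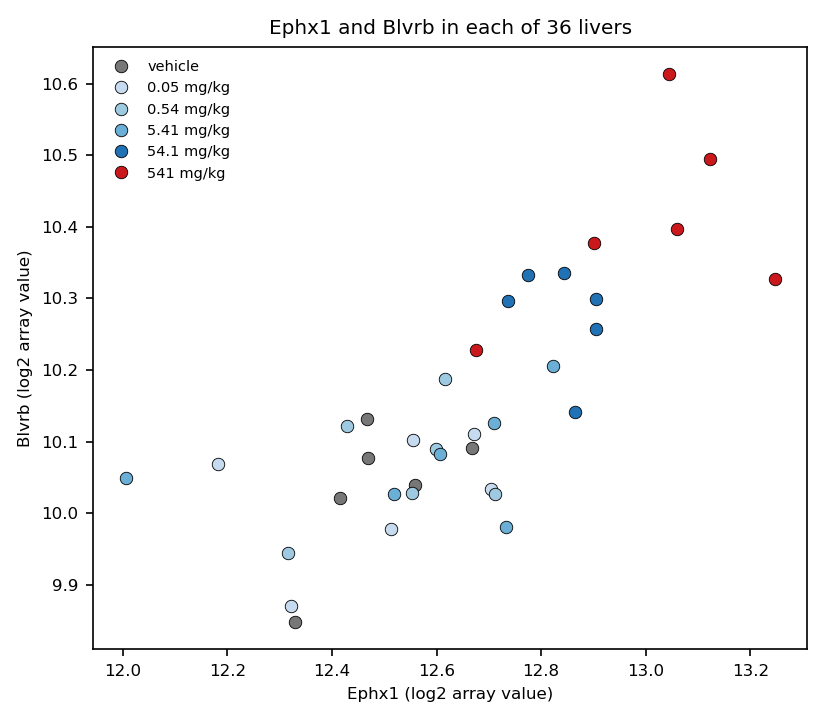
Each point is 1 of 36 livers, with its Ephx1 value on the horizontal axis and its Blvrb value on the vertical axis (both log2), coloured by dose. Samples at 541 and 54.1 mg/kg lie to the upper right, and the 541 mg/kg sample nearest to the others is replicate 2, at 12.67 for Ephx1 and 10.23 for Blvrb.

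Ephx1 and Blvrb were correlated over the 36 livers (Pearson r = 0.77), a figure that includes the shift of both with dose. Of deviations from the group means, which leave that shift out, r was 0.36 and Spearman's rho 0.35. The points share the array, so any property of an array touches both genes. In the same 541 mg/kg sample, replicate 2, Por and Cyb5a had their lowest values of the group as well. So did Alas1, Alad, Fech and Hmox1, which passed no test, while Cyb5r3 and Ephx2 did not.

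Por, the P450 reductase, was read by 2 probe sets. The brighter, 1387109_at, read 8.44, 8.87 and 9.17 in the lowest, median and highest sample at 541 mg/kg, against 8.11, 8.38 and 8.90 in vehicle. The groups overlapped, since replicate 2 of 541 mg/kg was low and vehicle replicate 3 was high. Of the 6 samples at 541 mg/kg, 3 lay above every vehicle sample and all 6 above the vehicle mean.

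Group medians of Por were 8.38 in vehicle, 8.33 at 0.05, 8.59 at 0.54, 8.58 at 5.41, 8.70 at 54.1 and 8.87 at 541 mg/kg. All 6 groups overlapped. The log2 difference at 541 mg/kg was 0.43 ± 0.11, or 1.35-fold, without passing (limma adjusted p = 0.129, n = 6 each). For 54.1 mg/kg it was 0.24 ± 0.11 (limma adjusted p = 0.536). The trend rose by 0.08 per dose step (limma adjusted p = 0.0403).

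The second Por probe set, 1368213_at, read 7.35, 7.72 and 8.19 in the lowest, median and highest sample at 541 mg/kg, against 7.25, 7.41 and 8.13 in vehicle. Its difference at 541 mg/kg was 0.26 ± 0.13 (limma adjusted p = 0.537, n = 6 each), and its trend of 0.04 per step did not pass (limma adjusted p = 0.397). Deviations of the 2 probe sets from their group means had a Pearson r of 0.80 over the 36 livers. The trend of the brighter probe set passed in 24 of 36 fits without 1 sample and was lost, with adjusted p-values up to 0.0945 (limma), without vehicle replicates 1, 4 or 6, 0.05 mg/kg replicates 2 or 6, 54.1 mg/kg replicates 1, 2 or 4, or 541 mg/kg replicates 1, 4, 5 or 6. Without vehicle replicate 3 or 541 mg/kg replicate 2, Por passed at 541 mg/kg (limma adjusted p = 0.0316 and 0.0301).

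Cyb5a, the gene of cytochrome b5, moved little but with little spread. Probe set 1386904_a_at read 13.46, 13.57 and 13.68 in the lowest, median and highest sample at 541 mg/kg, against 13.30, 13.43 and 13.45 in vehicle. The 54.1 mg/kg samples had 13.46, 13.50 and 13.59. Both doses were clear of vehicle, in each case with the lowest treated sample next to the highest vehicle sample.

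The medians of Cyb5a were 13.43 in vehicle, 13.45 at 0.05, 13.43 at 0.54, 13.43 at 5.41, 13.50 at 54.1 and 13.57 at 541 mg/kg. The 541 mg/kg group overlapped all 3 lowest doses, and 54.1 mg/kg overlapped 0.05 and 5.41 mg/kg. Its within-group standard deviation, 0.05, was at the 0.174th percentile of all probe sets. The log2 difference at 541 mg/kg was 0.16 ± 0.04, or 1.12-fold (limma adjusted p = 0.0924, n = 6 each). The trend rose by 0.03 per dose step (limma adjusted p = 0.033). It was lost in 6 of 36 fits without 1 sample, namely vehicle replicate 4, 54.1 mg/kg replicate 1 and 541 mg/kg replicates 1, 4, 5 and 6, with adjusted p-values up to 0.0709 (limma). At 541 mg/kg itself Cyb5a passed when probe sets of low mean were left out (limma adjusted p = 0.0247), when the variance was modelled with a trend and robustly (limma adjusted p = 0.00907), when the 18 samples of the 3 lowest doses stood in for vehicle (limma adjusted p = 0.0486) and without 541 mg/kg replicate 2 (limma adjusted p = 0.0288).

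With each array centred on its median, the trends of Por and Cyb5a kept slopes of 0.08 and 0.03 per step but did not pass (limma adjusted p = 0.0538 for Por and 0.0852 for Cyb5a). Quantile normalisation kept all 4 trend calls. With the top dose left out of the slope, though its samples stayed in the fit, none of the 4 passed. A slope over vehicle and the 4 lower doses, an alternative added after the results were seen, was 0.05 per step for Blvrb, 0.08 for Ephx1, 0.06 for Por and 0.02 for Cyb5a, with limma adjusted p-values of 0.113, 0.196, 0.471 and 0.528.

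Cyb5r3 encodes cytochrome b5 reductase, which returns electrons to cytochrome b5. Probe set 1370808_at read 10.88, 11.09 and 11.19 in the lowest, median and highest sample at 541 mg/kg, against 10.92, 11.09 and 11.15 in vehicle. The ranges overlapped and the medians were equal at this rounding. Its log2 difference was 0.01 ± 0.07, with a 95% confidence interval of -0.14 to 0.16 (limma adjusted p = 0.988, n = 6 each). Its trend was 0.0022 per step (limma adjusted p = 0.97).

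**Figure D3:**
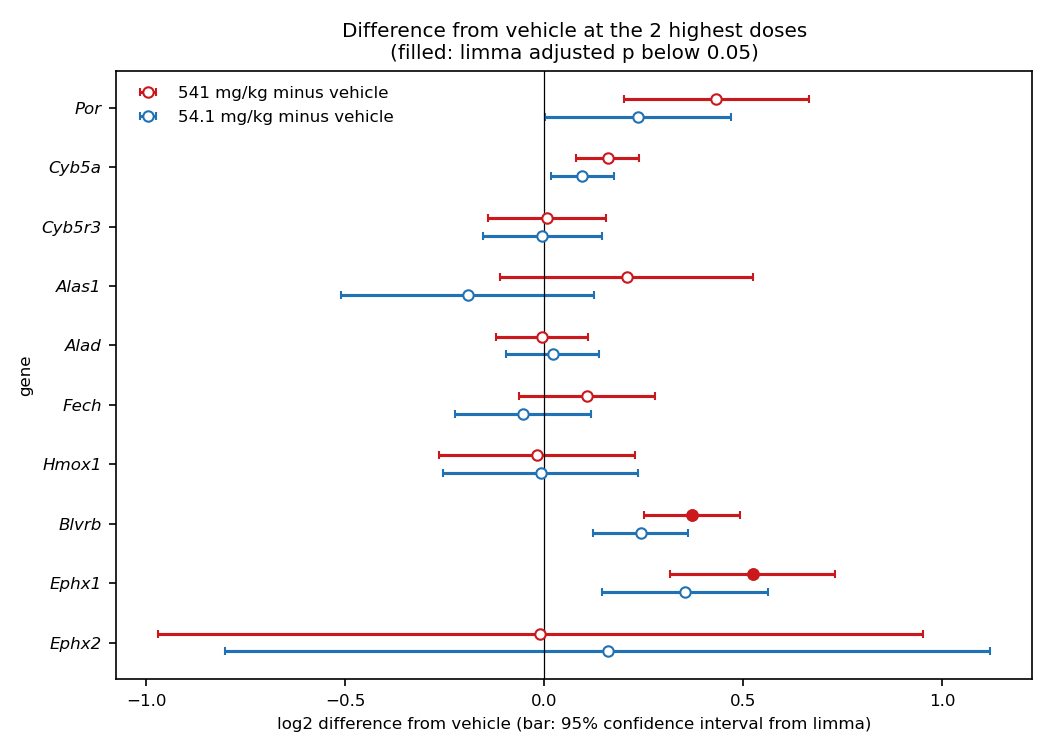
For each of the 10 genes (rows), points give the log2 difference from vehicle at 541 mg/kg (upper, red) and 54.1 mg/kg (lower, blue), with limma's 95% confidence interval as a bar; filled points have an adjusted p under 0.05. Blvrb (0.37) and Ephx1 (0.52) at 541 mg/kg are the filled points, and the Ephx2 bars are the widest.

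Among other genes that hand electrons to P450s or bind them, 6 of the 8 listed were measured, and none passed at 541 mg/kg, with 2 at an unadjusted p under 0.05. These were Fdx1, the ferredoxin of mitochondrial P450s, at 0.28 ± 0.09 (limma adjusted p = 0.268), and Pgrmc1, a heme-binding membrane protein, at 0.08 ± 0.04 (limma adjusted p = 0.481). A second Fdx1 probe set differed by 0.17 (limma adjusted p = 0.716). The median difference of these 6 was 0.06. Of all probe sets, 9.07% had an unadjusted p under 0.05 at 541 mg/kg.

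Alas1 encodes the first and, in liver, rate-limiting enzyme of heme synthesis, and it is known as a gene that foreign chemicals induce. Probe set 1367982_at read 10.27, 10.58 and 11.37 in the lowest, median and highest sample at 541 mg/kg, against 10.10, 10.47 and 10.79 in vehicle. The groups overlapped, and the sample at 11.37, replicate 6, was the highest of all 36. Group medians were 10.47 in vehicle, 10.16 at 0.05, 10.29 at 0.54, 10.21 at 5.41, 10.28 at 54.1 and 10.58 at 541 mg/kg.

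The Alas1 difference at 541 mg/kg was 0.21 ± 0.16, with a 95% confidence interval of -0.11 to 0.52 (limma adjusted p = 0.743, n = 6 each). At the 4 lower doses the mean lay below vehicle, with differences of -0.20 at 0.05, -0.22 at 0.54, -0.20 at 5.41 and -0.19 at 54.1 mg/kg, with limma adjusted p-values between 0.759 and 1. Set against 54.1 mg/kg, the 541 mg/kg mean was higher by 0.40 ± 0.16 (unadjusted p = 0.0155, limma adjusted p = 0.99). Alas1 varied more between livers of a group than most probe sets did, with a within-group standard deviation of 0.29, at the 96.2nd percentile. Without 541 mg/kg replicate 6 the difference from vehicle was the smallest of the 12 fits without 1 sample, which ran from 0.06 to 0.29.

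Alad, which joins pairs of the ALAS1 product into porphobilinogen, read 10.96, 11.20 and 11.35 in the lowest, median and highest sample at 541 mg/kg, against 11.08, 11.18 and 11.28 in vehicle. The 541 mg/kg range enclosed the vehicle range. Its difference was -0.01 ± 0.06, with a 95% confidence interval of -0.12 to 0.11 (limma adjusted p = 0.985, n = 6 each). Fech, the ferrochelatase of the last step, read between 9.89 and 10.46 at 541 mg/kg, against 9.81 to 10.33 in vehicle. The Fech ranges overlapped, and the difference was 0.11 ± 0.08, with a 95% confidence interval of -0.06 to 0.28 (limma adjusted p = 0.757, n = 6 each).

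The rest of heme synthesis and the transport that serves it comprised 14 listed genes, of which 12 were measured. At 541 mg/kg 1 rose, none fell and 3 had an unadjusted p under 0.05, with a median difference of 0.04. Of all probe sets, 0.116% were called higher and 9.07% had such a p. The gene that rose was Slc25a37, mitoferrin, which brings iron into mitochondria for ferrochelatase. Its difference was 0.35 ± 0.08 (limma adjusted p = 0.0493, n = 6 each), with 5 of 6 samples above every vehicle sample, and its trend of 0.06 per step passed as well (limma adjusted p = 0.031), in 29 of 36 fits without 1 sample. The call at 541 mg/kg passed in only 3 of 12 fits without 1 sample, with adjusted p-values up to 0.137 (limma): it was lost without vehicle replicates 1, 2, 4 or 5 and without 541 mg/kg replicates 1, 2, 4, 5 or 6. It was also lost with arrays centred on their medians (limma adjusted p = 0.0763), and the 18 samples of the 3 lowest doses in place of vehicle reduced the difference to 0.17 (limma adjusted p = 0.43).

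Tspo, an outer-membrane protein of mitochondria that binds porphyrins, was 0.50 ± 0.12 higher at 541 mg/kg without passing (limma adjusted p = 0.0931). The enzymes between Alad and Fech that were measured, Uros, Urod, Cpox and Ppox, differed by 0.07, 0.01, 0.02 and -0.01, and Alas2, the erythroid form of the first enzyme, by -0.0042 (limma adjusted p between 0.825 and 0.995). No enzyme of the chain from ALAS1 to ferrochelatase that was measured therefore passed at 541 mg/kg.

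Other genes of heme breakdown, export and scavenging numbered 14 listed and 12 measured. None passed at 541 mg/kg, 1 had an unadjusted p under 0.05, beside 9.07% of all probe sets, and the median difference was -0.03. Hebp1, a heme-binding protein, was 0.18 higher (limma adjusted p = 0.371), and Slc48a1, a heme transporter of lysosomes, 0.13 higher (limma adjusted p = 0.611). The constitutive heme oxygenase Hmox2 differed by -0.07 (limma adjusted p = 0.811) and Blvra, the other biliverdin reductase, by -0.02 (limma adjusted p = 0.968). The Blvra interval, -0.18 to 0.14, lay wholly below the Blvrb interval of 0.25 to 0.49, although the difference between these probe sets was not tested.

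**Figure D4:**
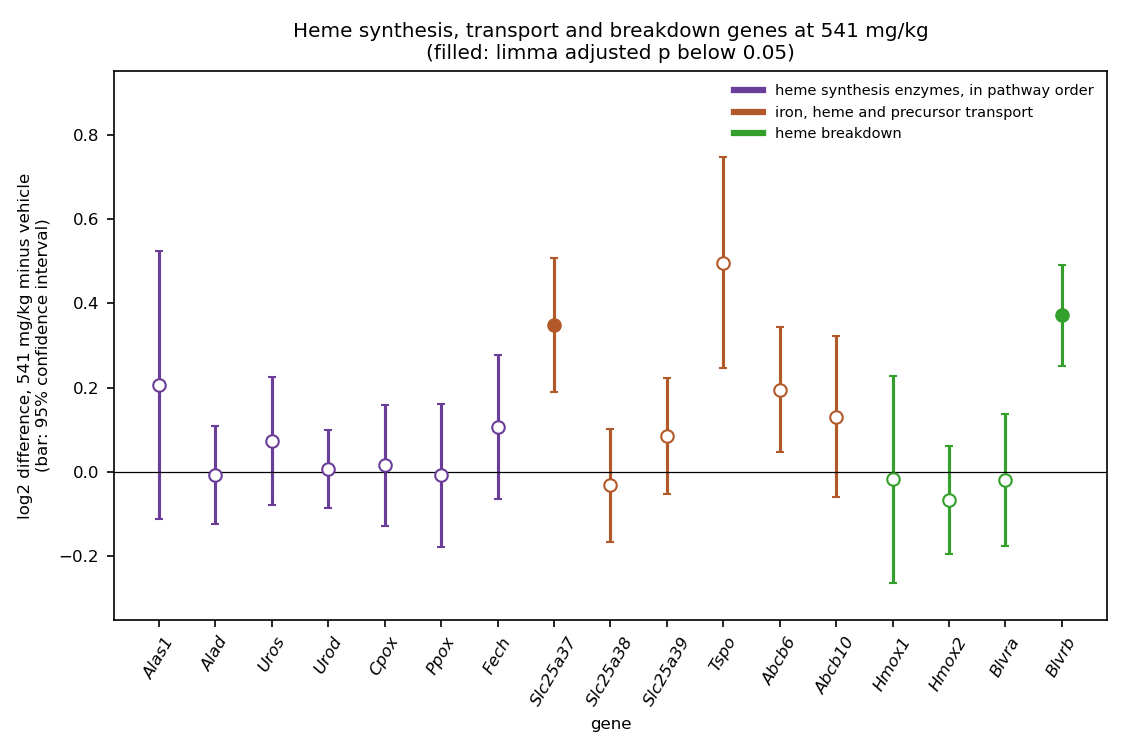
Genes of heme synthesis (violet, in pathway order), of iron, heme and precursor transport (brown) and of heme breakdown (green) are set along the horizontal axis, with the log2 difference of 541 mg/kg minus vehicle and limma's 95% confidence interval on the vertical axis; filled points have an adjusted p under 0.05. Slc25a37 (0.35) and Blvrb (0.37) are filled, while the 7 synthesis enzymes from Alas1 to Fech have intervals that include 0.

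The P450 enzymes that these partners serve were 36 listed and 30 measured. At 541 mg/kg 2 of the 30 rose and none fell, where 0.116% of all probe sets were called higher. An unadjusted p under 0.05 was found for 11 of the 30 and for 9.07% of all probe sets, and the median difference was 0.03. Cyp2c6v1 rose by 0.34 ± 0.05 (limma adjusted p = 0.000132) and Cyp3a23-3a1, of the CYP3A family, by 0.67 ± 0.11 (limma adjusted p = 0.00102, n = 6 each). Both had all 6 samples at 541 mg/kg above all vehicle samples. At 54.1 mg/kg Cyp2c6v1 rose by 0.26 ± 0.05 (limma adjusted p = 0.0173), a call lost without vehicle replicate 1 (limma adjusted p = 0.0513) and with those 2 groups alone in the fit (limma adjusted p = 0.0875). In the trend 4 of the 30 rose, where 0.341% of all probe sets did. Besides Cyp2c6v1 and Cyp3a23-3a1 they were Cyp2c12 (0.13 per step, limma adjusted p = 0.0414) and Cyp4a8 (0.06 per step, limma adjusted p = 0.0375). A second, dimmer Cyp4a8 probe set rose by 0.11 per step (limma adjusted p = 0.0445). The trends of Cyp2c12 and of the brighter Cyp4a8 probe set passed in 20 and 28 of 36 fits without 1 sample. With the variance modelled with a trend and robustly, the Cyp2c12 trend did not pass (limma adjusted p = 0.0614). P450 genes of 1 subfamily are close in sequence, and probes may read more than one of them.

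The regulators listed for these genes were all measured, 13 of 13. None passed at 541 mg/kg, 2 had an unadjusted p under 0.05, beside 9.07% of all probe sets, and the median difference was -0.02. Ahr, the aryl hydrocarbon receptor, was 0.46 ± 0.14 higher (limma adjusted p = 0.196) and its trend rose by 0.09 per step (limma adjusted p = 0.0473), but its second probe set differed by 0.02 with a trend of -0.01 (limma adjusted p = 0.979 and 0.945). The trend of the first passed in 13 of 36 fits without 1 sample, with slopes between 0.08 and 0.11 and adjusted p-values up to 0.0974 (limma). Keap1, the inhibitor of NRF2, was 0.16 higher (limma adjusted p = 0.472), and its second probe set differed by -0.01 (limma adjusted p = 0.989). The receptors Nr1i2 (PXR) and Nr1i3 (CAR) differed by -0.16 and -0.37 (limma adjusted p = 0.637 and 0.677), and Nfe2l2, which encodes NRF2, by -0.03 (limma adjusted p = 0.967).

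For the 4 genes that passed a test, the genes of most similar pattern were sought by Pearson correlation over the 36 livers among 7828 genes with a mean of at least 6. For Blvrb they were Ces2c (r = 0.88), Cyb5a (0.88) and Cyp2c6v1 (0.84). Ephx1 was nearest to Aldh1a1 (0.83), App (0.80) and Aox1 (0.80). For Cyb5a they were Blvrb (0.88), Zwint (0.82) and Psme4 (0.82), and for Por, Blvrb (0.71), Maco1 (0.67) and Slc35e3 (0.66). These r values include the shift with dose, and within groups they were smaller, with 0.69 for Blvrb and Cyb5a, 0.33 for Blvrb and Cyp2c6v1, 0.62 for Ephx1 and Aldh1a1, and 0.50 for Por and Blvrb. All points share arrays.

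Each liver was 1 array, and no 2 arrays were identical. Array medians lay between 5.06 and 5.17. The array of 54.1 mg/kg replicate 5 stood apart by a narrower spread: its quartiles were 3.8 and 6.95, whereas those of the remaining arrays ran from 3.62 to 3.72 and from 7.03 to 7.14. Without it, none of the 10 genes passed at 54.1 mg/kg either. Hepatocyte markers (6 of 6 measured) averaged between 12.99 and 13.17 per sample at 541 mg/kg, against 13.17 to 13.37 in vehicle, and 2 of 6 were higher. Periportal hepatocyte markers (7 of 7 measured) averaged 10.1 to 10.5 at 541 mg/kg, against 10.3 to 10.6 in vehicle, with 1 of 7 higher and Hal falling in the trend (limma adjusted p = 0.0378). Pericentral markers (7 of 8 measured) averaged 9.01 to 9.14 at 541 mg/kg, against 9.03 to 9.28 in vehicle, with 3 of 7 higher.

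Sinusoidal endothelial markers (5 of 7 measured) averaged 8.01 to 8.24 at 541 mg/kg, against 8.12 to 8.54 in vehicle, and 0 of 5 were higher. Erythroid markers (7 of 10 measured), whose cells make heme, averaged 5.71 to 5.94 at 541 mg/kg, against 5.63 to 5.89 in vehicle, with 3 of 7 higher. Kupffer cell and macrophage markers (6 of 9 measured), whose cells break heme down, averaged 7.65 to 8.35 at 541 mg/kg, against 7.49 to 8.38 in vehicle, with 5 of 6 higher. Stellate cell markers (6 of 6 measured) averaged 6.82 to 7.64 at 541 mg/kg, against 7.10 to 7.52 in vehicle, with 2 of 6 higher. Bile duct markers (4 of 5 measured) averaged 5.78 to 6.28 at 541 mg/kg, against 5.72 to 6.12 in vehicle, with 3 of 4 higher. None of these markers passed at 541 mg/kg. An unadjusted limma p under 0.05 was found for 3 of 5 sinusoidal endothelial, 3 of 7 periportal and 3 of 7 pericentral markers. Such a p was also found for 2 of 6 hepatocyte, 2 of 6 stellate and 1 of 7 erythroid markers, beside 9.07% of all probe sets. No Kupffer cell, macrophage or bile duct marker had such a p. The part of the cell types in the results was not tested. In bulk tissue, fewer cells of a type and less RNA per cell cannot be told apart.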

How the data were processed

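Per the submitters' processing notes, the deposited log2 values were made by the authors with RMA (background correction, normalisation between arrays, summary per probe set) and the affy package; versions are not given in the sources used here. Their range was 1.94 to 14.7. The log base was not checked, since scanner intensities were not used here. Per the labels' protocols, RNA had an integrity number of at least 7.

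Of 31099 probe sets, 57 controls were left out. The platform annotation gave 1 symbol to 20826, several to 436 and none to 9780; probe sets with several name no gene here. The Entrez IDs of 20758 were in RefSeq. A gene's main probe set is that of highest mean over all samples. Some genes are not reported here.

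A model of 6 group means over 36 samples was estimated without covariates by lmFit and eBayes (limma 3.58.1, R 4.3.3). The contrasts were each dose minus vehicle, 541 minus 54.1 mg/kg, a linear trend with scores 0 to 5, and the F-test. Tests were two-sided, adjusted by Benjamini-Hochberg over 31042 probe sets, at an FDR of 5%. Differences are given ± their standard error from limma. Precision is limited by the number of arrays, with a median standard error at 541 mg/kg of 0.0799. The procedure was tested on simulated data.

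All members were named, with list genes past the FDR in any contrast and, per list, the 2 of smallest p at 541 mg/kg; other genes named, such as Blvra, Hmox2, the synthesis enzymes, Nr1i2, Nr1i3 and Nfe2l2, were chosen after their values were seen. The members and the lists were chosen with earlier results of these data known. Groups and replicate numbers came from the sample titles, which name no batch. Same-numbered samples did not deviate together (mean r of deviations 0.0141, from -0.26 to 0.233; 5 of 36 samples correlated best with a sample of their own number), so the numbers were not used as a block. Alternatives were a filter on dim probe sets, array weights, other scalings, robust variances, a replicate block, other sets of groups and leaving out each sample.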

Additional observations from a re-analysis of the deposited data

Results flagged for a closer look

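Single samples stood apart from the other 5 of their group for 3 of the 66 combinations of probe set and group examined; chance sets apart about 1 in 20 such groups. Ephx2 read 9.36 in 0.05 mg/kg replicate 5, where the nearest other sample of that group read 6.17. Ephx1 read 12 in 5.41 mg/kg replicate 6, where the others lay between 12.5 and 12.8. Alad read 11.4 in 0.54 mg/kg replicate 3, where the nearest other sample read 11.2. The Ephx2 sample is 1 of the 4 high ones described above; the 3 others share the group of 0.54 mg/kg, where no single sample stood apart. The Ephx1 sample belongs to a dose at which no probe set was called, and the trend of Ephx1 passed with and without it.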

How the results depend on the processing

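Of 1343 gene values recomputed under the alternatives, 1165 kept direction and side of the threshold, 105 lost a call, 11 gained one and 62 changed sign; all that changed sign were of members that passed no test. The cause of the changes was not tested, other than that some settings test fewer probe sets or samples. Member calls at 541 mg/kg fell to 1 with only the compared groups in the fit, and those at 54.1 mg/kg became 1 there and with array weights; trend calls were 2 with median centring and 0 in the slope without 541 mg/kg, which was chosen after seeing the data, as were the trend and F-test fits without 1 sample. Probe sets called at 541 mg/kg numbered 48, with 79 (53 higher, 26 lower) under the dim filter, 80 (55, 25) with array weights, 74 (57, 17) after quantile normalisation, 31 (21, 10) with 2 groups and 84 (68, 16) against the 3 lowest doses. At 54.1 mg/kg they numbered 23 (13, 10), with 64 (34, 30) under weights, 43 (11, 32) with 2 groups and 5 against the 3 lowest doses. The trend called 222 (106, 116), with 369 (157, 212) under the dim filter, 376 (194, 182) under weights, 281 (162, 119) after quantile normalisation and 25 in the slope without 541 mg/kg; the F-test called 31, and 53 under weights. Leaving out 1 sample of vehicle or 541 mg/kg gave 18 to 63 probe sets and 1 to 4 members at 541 mg/kg (65 probe sets without 54.1 mg/kg replicate 5); leaving out 1 sample gave 5 to 36 and 0 at 54.1 mg/kg, 85 to 272 and 2 to 4 in the trend, 17 to 41 and 1 to 2 in the F-test, and 0 probe sets between 541 and 54.1 mg/kg without 54.1 mg/kg replicate 5, against 1 with it. A replicate block gave 44, 28, 212 and 28 probe sets at 541 mg/kg, at 54.1 mg/kg, in the trend and in the F-test, and changed no member call; it ended the call of Slc25a37 (limma adjusted p = 0.0718). Sign changes at 541 mg/kg were Cyb5r3 (-0.0028 with weights, -3.41e-06 centred, -0.0035 quantile) and Ephx2 (0.0047 weights, 0.00695 quantile). At 54.1 mg/kg they were Hmox1 (0.0125 quantile) and, against the 3 lowest doses, Cyb5r3 (0.0251), Alas1 (0.0142), Alad (-0.0125) and Ephx2 (-0.57). In the trend they were Alad (-0.00065 weights, -0.0013 centred, -0.00101 quantile) and, in the slope without 541 mg/kg, Cyb5r3 (-0.0025), Alas1 (-0.0388) and Fech (-0.0044). Without 1 sample, differences at 541 mg/kg ran from -0.021 to 0.0443 for Cyb5r3, -0.0400 to 0.0372 for Alad, -0.0576 to 0.0135 for Hmox1 and -0.0565 to 0.0571 for Ephx2. At 54.1 mg/kg they ran from -0.0542 to 0.0343 for Cyb5r3, -0.0964 to 0.0089 for Fech and -0.0592 to 0.0824 for Hmox1, and in the trend from -0.00201 to 0.0076 for Cyb5r3 and -0.0047 to 0.0064 for Alad.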

Other observations

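The genes nearest to the members that passed no test were looked at after their values were seen, over the same 36 livers and 7828 genes. Hmox1 was nearest to Adgre1 (Pearson r = 0.70), the macrophage surface marker also known as F4/80, then to Ly86 (0.68) and Itgb2 (0.67), both expressed by myeloid cells. Within groups these r values were 0.69, 0.69 and 0.64. Kupffer cells and other macrophages are known to express heme oxygenase 1, and the part of these cells in the spread of Hmox1 between livers was not tested. Cyb5r3 was nearest to Tcn2 (0.84), which encodes the vitamin B12 carrier transcobalamin, with 0.87 within groups. The nearest gene to Alas1, Zbtb48, reached 0.68.

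The highest r of Ephx2 over the 36 livers was 0.53, with Anapc7, followed by 0.51 with Shld2. Within groups these r values were 0.53 and 0.62. The within-group spread of Ephx2 was at the 99.9th percentile of all probe sets.

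Some pairs of genes varied together between livers of the same dose. Of deviations from the group means, Alad and Fech had a Pearson r of 0.58 and a Spearman rho of 0.62, and Alas1 and Alad had 0.47 and 0.39. Cyb5r3 and Fech had 0.52 and 0.51, and Cyb5a and Fech had 0.58 and 0.45. Alas1 and Fech had only 0.34 and 0.23. Without the 2 livers farthest from the median in Alas1, the Pearson r of Alas1 and Alad was 0.34. These pairs were named after their values were seen. The points share arrays, and these values are descriptions.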
